A study of Mus musculus with 39 samples.

Results

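Genes that build ribosomes, together with classic targets of the transcription factor MYC, were followed in tumour cells sorted from mouse pancreatic tumours. The module held 36 genes, chosen by symbol from a list, and all 36 were found among the 38803 gene symbols of the count table. By role they comprised 8 nucleolar organisers and RNA polymerase I subunits, 5 proteins of small nucleolar ribonucleoproteins (snoRNPs), 5 factors of small subunit maturation, 10 of large subunit maturation, the 2 mitochondrial chaperonin genes and 6 growth and metabolism targets of MYC.

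The series sequenced RNA from sorted tumour cells in 39 libraries of 20 clones, as read from the library titles (yfp_6499c3_no2 is library 2 of clone yfp_6499c3). Each clone had been grown subcutaneously in C57BL/6 mice, without treatment, and its tumours were taken after 3 weeks. The labels class each clone by the T cells its tumours attract: T cell high (6 clones, 14 libraries), T cell intermediate (2 clones, 4 libraries), T cell low (9 clones, 18 libraries), and 3 clones with 1 library each that carry no class and entered no comparison. All groups share the strain, the implantation site and the sort, and no library was treated. Each library stands for 1 clone, and clones whose names share a number, such as yfp_6419c1, yfp_6419c4 and yfp_6419c5, were read as sisters of 1 line, yet were counted as separate in the tests. Whether libraries of 1 clone stem from separate animals is not in the labels. Where counts were summed per clone, p-values measure how far clones of a group vary, and this includes any variation between libraries. In the fits that took libraries as replicates, p-values rest on variation among libraries. Part of that variation could be technical.

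MYC is a basic helix-loop-helix factor that binds, with its partner MAX, the DNA motif CACGTG called the E-box. It is known to raise the output of all RNA polymerases and the genes that process ribosomal RNA, and it is often active in pancreatic cancer. In the nucleolus, RNA polymerase I makes a long precursor, snoRNPs modify and help cut it, and separate sets of factors then mature the small and large ribosomal subunits.

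Promoter windows from RefSeq (build GRCm38.p6), spanning 250 bases before to 50 after an annotated start, were matched for 29 of the 36 members. The E-box CACGTG, which reads the same on both strands, lay in a window of 8 of these 29 members (27.6%), against 8.09% of 27025 genes with such a window. Counted over windows, the share was 23.5% of the members' 34 windows and 7.15% of all 32851 windows. A match is a description of the letters and does not show that MYC binds there. Of the members with values in every class below, Eif4e, Hspd1, Mybbp1a, Pes1 and Utp20 hold the motif in a window. The windows of Nop56, Nolc1, Nop16, Odc1 and Cad do not, and Rrp12 had no window. Eif4e and Hspd1 each have another window, without the motif, that is not printed. Windows of Eif4e, Hspd1, Mybbp1a and Pes1 that hold the motif are printed as examples, with the motif in capitals. They lie at chr3:138527018-138527317 on the plus strand (Eif4e), chr1:55088194-55088493 on the minus strand (Hspd1), chr11:72441077-72441376 on the plus strand (Mybbp1a) and chr11:3963725-3964024 on the plus strand (Pes1).
Eif4e: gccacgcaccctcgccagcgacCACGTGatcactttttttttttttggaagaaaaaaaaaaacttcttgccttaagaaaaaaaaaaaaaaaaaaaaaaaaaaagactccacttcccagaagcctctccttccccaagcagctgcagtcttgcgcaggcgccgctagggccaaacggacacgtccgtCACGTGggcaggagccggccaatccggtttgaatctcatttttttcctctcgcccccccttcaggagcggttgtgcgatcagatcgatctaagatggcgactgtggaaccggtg
Hspd1: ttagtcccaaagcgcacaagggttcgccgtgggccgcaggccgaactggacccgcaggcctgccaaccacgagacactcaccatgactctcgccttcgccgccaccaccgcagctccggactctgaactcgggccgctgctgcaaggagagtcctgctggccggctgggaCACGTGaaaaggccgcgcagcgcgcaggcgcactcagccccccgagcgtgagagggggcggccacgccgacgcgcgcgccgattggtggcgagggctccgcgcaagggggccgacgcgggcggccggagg
Mybbp1a: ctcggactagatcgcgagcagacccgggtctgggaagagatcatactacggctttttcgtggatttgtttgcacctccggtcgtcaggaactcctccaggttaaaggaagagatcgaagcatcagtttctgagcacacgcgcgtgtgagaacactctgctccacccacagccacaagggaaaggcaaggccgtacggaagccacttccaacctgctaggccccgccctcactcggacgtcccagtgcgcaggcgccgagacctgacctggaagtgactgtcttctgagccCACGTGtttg
Pes1: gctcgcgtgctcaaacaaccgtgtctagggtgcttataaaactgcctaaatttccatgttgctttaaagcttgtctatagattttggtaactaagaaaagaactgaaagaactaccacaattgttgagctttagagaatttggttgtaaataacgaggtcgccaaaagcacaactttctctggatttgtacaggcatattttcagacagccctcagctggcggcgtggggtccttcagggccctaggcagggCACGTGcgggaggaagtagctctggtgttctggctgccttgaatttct
The printed Eif4e window holds 2 matches and the other 3 printed windows hold 1 match each. Hspd1 and its neighbour Hspe1 are read in opposite directions, and their annotated 5′ ends overlap.

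Library totals ranged from 19774638 to 55997777 counts in T cell high, from 18517638 to 40056571 in T cell intermediate and from 7638130 to 103794674 in T cell low libraries. Read as CPM (a count scaled to the library total), the transcripts of Myh6, Myh7, Myl2 and Mb, made by heart muscle, summed to at most 0.235 in 20 libraries, called heart-free, and to 152 to 4893 in the other 19, called heart-bearing. Of the 16 heart-bearing libraries whose clone also had a heart-free one, 15 resembled a library of another clone (r of 0.949 to 0.996 over 13852 genes) more than a heart-free library of their own clone (0.775 to 0.943). Without genes over 4 times higher in heart-bearing than in heart-free libraries, a choice made after seeing the data, this held for 13 of the 16, over 12901 genes. Whether these libraries carry the right clone labels was not tested, and the heart-free libraries (6 T cell high, 2 T cell intermediate and 8 T cell low clones) carry the results below, with the others set beside them. The 6 liver transcripts summed to 481 to 15887 CPM in heart-bearing and 0.0803 to 241 CPM in heart-free libraries. In heart-free libraries the epithelial genes Krt19 and Epcam were at 635 to 2926 and 12.7 to 1471 CPM, while the T cell gene Cd3e reached at most 0.773 CPM. The 6 fibroblast markers summed to 168 to 17623 CPM in T cell high clones, 560 and 810 CPM in T cell intermediate clones and 213 to 5955 CPM in T cell low clones, with yfp_6555c3 (T cell high) and yfp_6419c4 (T cell low) at the top of their classes. Summed over 12 leukocyte markers the heart-free clones held 85.0 to 2573 CPM (T cell high, median 1225), 40.8 and 3488 CPM (T cell intermediate) and 60.4 to 1451 CPM (T cell low, median 209). In bulk RNA, fewer cells of a type and less RNA per cell cannot be told apart.

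Per length, the members spanned a wide range. Npm1, which encodes the nucleolar chaperone nucleophosmin, had the highest median level in heart-free libraries at 353 CPM per kb of exon, followed by the chaperonin genes Hspd1 (165) and Hspe1 (120) and by the gene of nucleolin, Ncl (96.7). Wdr12, a partner of Pes1 and Bop1 in large subunit maturation, was the lowest at 2.72 CPM per kb. Its union of exons, 11955 bases, was also the longest of the members, so its rank depends on that length. Myc itself stood at 44.8 CPM per kb. Npm1, Hspd1 and Hspe1 have processed copies in the genome, so the counts of these 3 genes are uncertain. The strand setting of the counting is not given in the sources used here, so reads in the stretch shared by Hspd1 and Hspe1 are uncertain too.

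The first comparison asks whether the module differs between T cell high and T cell low clones. In heart-free libraries no member passed the test: 0 of 36 reached an adjusted p under 0.05 by edgeR's quasi-likelihood test with Benjamini-Hochberg adjustment over 15614 genes, and 0.0% of all genes did. The differences leaned to lower values in T cell high clones, with 32 members negative and 4 positive and a median of -0.14 on the log2 scale, against -0.00 over all genes. At an unadjusted p under 0.05, 4 members were lower (Eif4e, Cad, Srm and Mybbp1a) and 0 higher, against 5.78% of all genes lower. DESeq2 and limma also called 0 members, with 5 and 4 at an unadjusted p under 0.05. For them the share of all genes at that level is not given, and DESeq2 did call genes outside the module. The median over members shrank to -0.07, with 11 positive, once the T cell low clone yfp_2699c4 was left out.

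The mean log2(CPM + 0.5) of the 36 members, called the score, was 6.61 to 6.79 in T cell high clones (6.69 ± 0.07, SD, n = 6), 6.40 and 6.72 in T cell intermediate clones and 6.50 to 7.31 in T cell low clones (6.85 ± 0.25, SD, n = 8). T cell high clones lay within the range of T cell low clones, and the spread among T cell low clones was wider. The highest score belonged to yfp_2699c4 and the next, 7.05, to yfp_6421c2, both T cell low. The lowest, 6.40, belonged to the intermediate clone yfp_7160c5. Its heart-free library held 3488 CPM of leukocyte markers, the most of all heart-free libraries, and their part in the score was not tested.

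**Figure D1:**
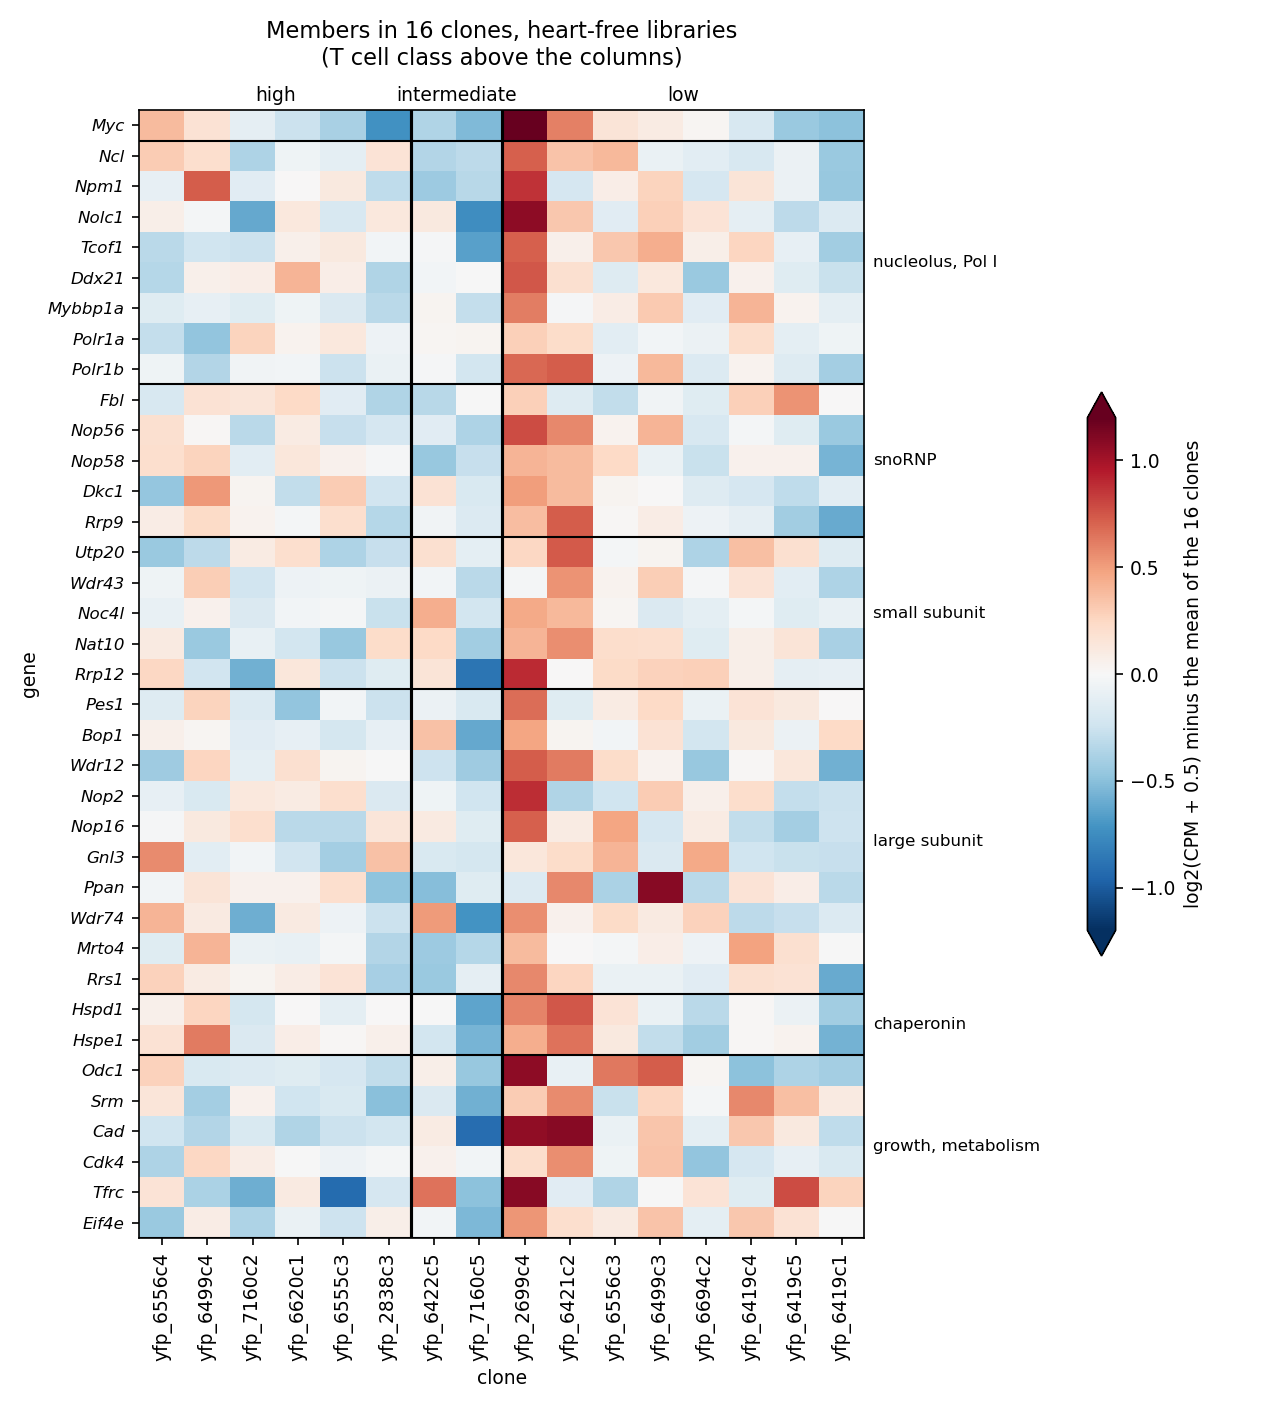
Level of Myc and the 36 members in heart-free libraries, as log2(CPM + 0.5) minus the mean of the 16 clones, with genes in rows by role and clones in columns by T cell class (high, intermediate, low, each ordered by Myc). Colours beyond 1.2 are cut off at the ends of the scale. The column of yfp_2699c4 is above the mean in most rows, and that of yfp_7160c5 is below it in most.

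Among the nucleolar organisers and RNA polymerase I subunits, all 8 differences were negative (median -0.18) and none passed. Mybbp1a, a nucleolar protein that binds MYB and takes part in ribosomal RNA processing, ranged from 248 to 300.0 CPM in T cell high clones (median 282), was 255 and 318 CPM in the intermediate clones, and ranged from 284 to 477 CPM in T cell low clones (median 326). Of the 6 T cell high clones, 4 lay below every T cell low clone, and 6 of the 8 T cell low clones lay above every T cell high clone. Its difference was -0.32 ± 0.12 on the log2 scale (SE, adjusted p = 0.327). Nolc1, a chaperone of snoRNPs, overlapped widely, with 87.1 to 146 CPM in T cell high clones (median 136), 79.4 and 145 CPM in intermediate clones, and 107 to 281 CPM in T cell low clones (median 137). Npm1 differed by -0.00 ± 0.21.

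Of the snoRNP proteins, 4 of 5 differences were negative with a median of -0.02. Nop56, a core protein of the box C/D particles that guide ribosomal RNA methylation, had 108 to 154 CPM in T cell high clones (median 127), 104 and 123 CPM in intermediate clones, and 99.0 to 232 CPM in T cell low clones (median 136). The ranges overlapped, and the difference was -0.23 ± 0.19 (SE, adjusted p = 0.599). In small subunit maturation all 5 differences were negative (median -0.27). Utp20, a large protein of the small subunit processome, had 58.6 to 92.0 CPM in T cell high clones (median 65.1), 73.6 and 91.3 CPM in intermediate clones, and 61.7 to 134 CPM in T cell low clones (median 86.7). Rrp12, known from yeast for its role in the export of both subunits, had 26.7 to 47.8 CPM (T cell high, median 35.0), 21.6 and 44.6 CPM (intermediate) and 37.1 to 75.1 CPM (T cell low, median 44.5). Of the T cell high clones 4 lay below every T cell low clone for Rrp12, and its difference was -0.34 ± 0.19 (SE, adjusted p = 0.441).

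For large subunit maturation, 8 of 10 differences were negative (median -0.12). Pes1, which joins Bop1 and Wdr12 in the complex that processes the precursor of the large subunit RNA, ranged from 79.0 to 132 CPM in T cell high clones (median 98.7), was 97.2 and 105 CPM in the intermediate clones and ranged from 99.7 to 176 CPM in T cell low clones (median 119). Nop16, a nucleolar factor of large subunit assembly, had 43.1 to 62.3 CPM (T cell high, median 56.1), 48.7 and 58.3 CPM (intermediate) and 40.6 to 88.9 CPM (T cell low, median 52.3). For both genes the classes overlapped, though 4 T cell high clones lay below every T cell low clone for Pes1, and 0 did for Nop16. The mitochondrial chaperonin genes split, Hspd1 at -0.11 ± 0.18 and Hspe1 at 0.11 ± 0.19. Hspd1 ranged from 380 to 524 CPM in T cell high clones (median 439), was 283 and 435 CPM in intermediate clones and ranged from 328 to 735 CPM in T cell low clones (median 431).

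The growth and metabolism targets had the most negative median of the 6 role groups, -0.39, with all 6 differences negative. Eif4e, which encodes the protein that binds the cap of messenger RNAs to start translation, had 62.6 to 90.8 CPM in T cell high clones (median 76.3), 58.8 and 83.7 CPM in intermediate clones, and 78.8 to 124 CPM in T cell low clones (median 97.5). In 6 of 8 T cell low clones it was above every T cell high clone, and its difference of -0.36 ± 0.11 had the smallest p of the members (adjusted p = 0.252). Cad, the enzyme that opens pyrimidine synthesis, lay between 101 and 114 CPM in T cell high clones (median 109), at 68.4 and 139 CPM in intermediate clones, and between 105 and 277 CPM in T cell low clones (median 151). All but 1 of the 8 T cell low clones exceeded every T cell high clone, with a difference of -0.65 ± 0.21 (SE, adjusted p = 0.259). Srm, spermidine synthase, differed by -0.42 ± 0.15 (adjusted p = 0.294). Odc1, the rate-limiting enzyme of polyamine synthesis, ranged from 214 to 319 CPM (T cell high, median 234), was 192 and 278 CPM in the intermediate clones, and ranged from 187 to 554 CPM (T cell low, median 258), with broad overlap.

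Myc followed the same layout. It had 81.5 to 176 CPM in T cell high clones (median 119), 93.3 and 105 CPM in T cell intermediate clones, and 96.1 to 566 CPM in T cell low clones (median 141). The difference was -0.58 ± 0.39 (SE, adjusted p = 0.512) and shrank to -0.09 ± 0.22 without yfp_2699c4, whose 566 CPM compares with 206 CPM in the next T cell low clone.

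Other gene lists of the cell growth programme were read beside the members. Of 99 other ribosome biogenesis genes, 69 differences were negative and 30 positive (median -0.11), with 10 lower and 3 higher at an unadjusted p under 0.05. Of 24 proliferation genes, 22 were negative (median -0.30). The 76 cytosolic ribosomal protein genes, which encode the ribosome itself, had the opposite sign: 72 were positive with a median of 0.23, and 24 were higher at an unadjusted p under 0.05, against 7.62% of all genes, though none passed adjustment. With RLE scaling 72 were also positive, and without yfp_2699c4 73 were. Many ribosomal protein genes have processed copies, so their counts are uncertain. The 10 leukocyte markers that could be tested were all positive (median 1.64, 4 of them at an unadjusted p under 0.05, none passing), and the part of such cells in the members' differences was not tested.

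Summed over all libraries of each clone, all 36 members had negative differences between T cell high and T cell low clones (median -0.21, against -0.01 over all 18529 genes). Again 0 members passed edgeR's test, as did 0.0% of all genes. At an unadjusted p under 0.05 by edgeR, 10 members were lower, against 6.78% of all genes. DESeq2 and limma called 0 members (11 and 9 at an unadjusted p under 0.05). For them the share of all genes at that level is not given, and DESeq2 did call genes outside the module. The transferrin receptor gene Tfrc, which brings iron into cells, had the smallest adjusted p at 0.320, with a difference of -0.66 ± 0.19. With heart-bearing or heart-free as a block and libraries as replicates, Tfrc passed (1 member lower), though libraries of 1 clone then count as independent. The share of all genes called in that fit is not given. In heart-bearing libraries alone 35 of 36 members were negative (median -0.20) and 0 passed. In these sums the heart transcripts had a median difference of 0.85, the liver transcripts of 0.90 and the leukocyte, fibroblast and endothelial markers of 0.62, 0.64 and 0.62, none passing, and their part was not tested.

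The module was next related to Myc across the 16 heart-free clones with a class. The slope is the log2 change of a gene per unit of log2 Myc CPM, with Myc left out of the tested genes. All 36 members had positive slopes, with a median of 0.27, while 47.6% of all 13291 genes were positive and their median was -0.01. Only Nop56 passed the test, with a slope of 0.43 ± 0.07 (SE, adjusted p = 0.0376), among 0.0376% of all genes that passed in that direction. At an unadjusted p under 0.05, 27 of 36 members had positive slopes, against 7.42% of all genes.

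Without yfp_2699c4, the clone with the highest Myc level, 34 members had positive slopes and their median was 0.33. Then 15 members reached an unadjusted p under 0.05, against 4.77% of all genes, and 0 passed adjustment. The slope of Nop56 was then 0.58 ± 0.12 (SE, adjusted p = 0.267). The call on Nop56 also ended when any 1 of 7 other clones was left out and when the T cell class entered as a covariate, with members called between 0 and 2. DESeq2 called 12 members, Nop56 among them, and limma called Nop56 alone. Both tools also called more of all genes than edgeR did, with the counts given in the section on processing choices.

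**Figure D2:**
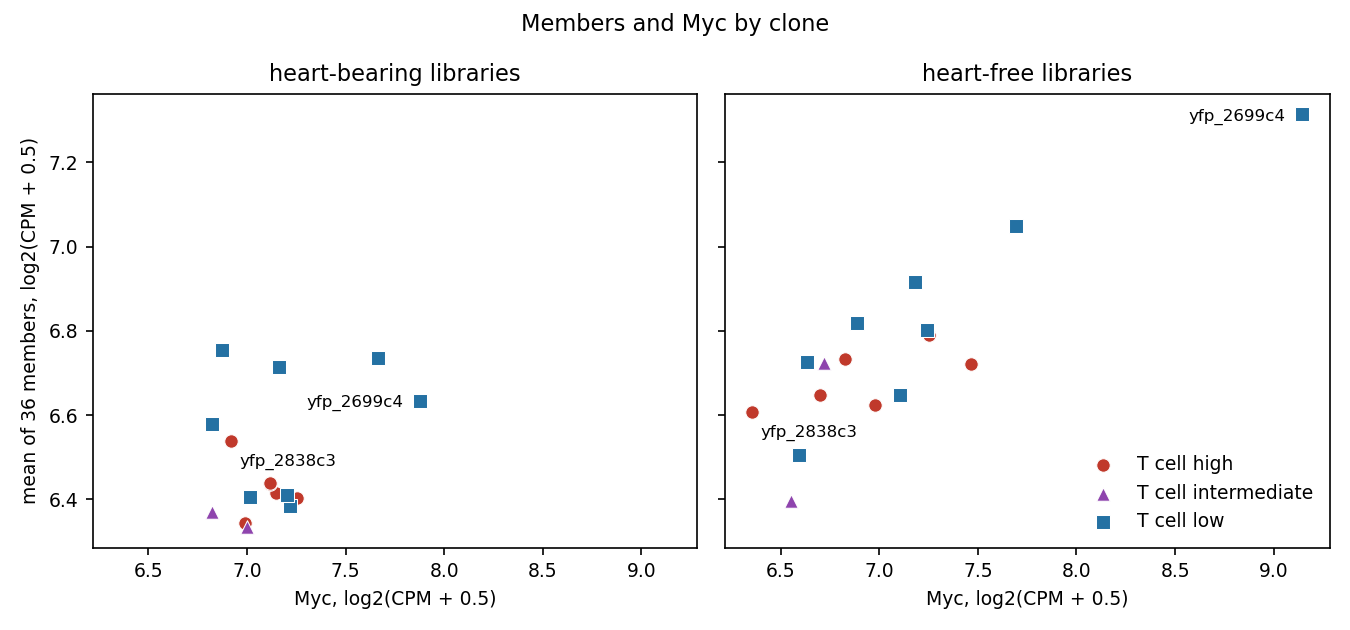
Mean log2(CPM + 0.5) of the 36 members against log2(CPM + 0.5) of Myc, 1 point per clone, in heart-bearing (left) and heart-free (right) libraries, coloured by T cell class. Heart-free clones run from low to high on both axes (r = 0.87), while heart-bearing clones show no such run (r = 0.33).

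As a description over clones, the score and log2 Myc had a Pearson r of 0.87 and a Spearman rho of 0.73 in heart-free libraries (n = 16). Leaving out yfp_2699c4 and yfp_6421c2, the 2 clones farthest from the median of Myc, gave an r of 0.60 and a rho of 0.60 (n = 14). Within T cell high clones r was 0.69 (n = 6), and within T cell low clones it was 0.91 (n = 8). Both quantities share the library and its depth, and TMM or RLE scaling gave an r of 0.91 each. In heart-bearing libraries r was 0.33 (n = 16), and -0.25 without the 2 farthest clones, yfp_2699c4 and yfp_6499c3. In heart-bearing libraries alone 31 members had positive slopes (median 0.22), with 14 at an unadjusted p under 0.05 against 7.38% of all genes, and 0 passed.

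Among nucleolar organisers and RNA polymerase I subunits the median slope was 0.32, and 7 of 8 reached an unadjusted p under 0.05. Nolc1 led them at 0.46 ± 0.09 (adjusted p = 0.0766), and Polr1a, the largest subunit of RNA polymerase I, had 0.07 ± 0.07, while its partner subunit gene Polr1b had 0.36 ± 0.08. Within the snoRNP proteins the box C/D partners were far apart, with Nop56 at 0.43 ± 0.07, Nop58 at 0.25 ± 0.08 and the methyltransferase gene Fbl at 0.06 ± 0.09. Small subunit factors had a median of 0.23, led by Rrp12 at 0.43 ± 0.10, and Utp20 had 0.14 ± 0.11.

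Large subunit factors had a median slope of 0.27, and 7 of 10 reached an unadjusted p under 0.05. Nop16 had 0.32 ± 0.09 (adjusted p = 0.141) and Pes1 0.26 ± 0.08, whereas Ppan, a nucleolar factor of large subunit assembly, had 0.09 ± 0.16. Both chaperonin genes reached an unadjusted p under 0.05, Hspd1 at 0.37 ± 0.09 and Hspe1 at 0.31 ± 0.12. Cad at 0.54 ± 0.12 and Odc1 at 0.52 ± 0.11 had the steepest slopes of the module, and Eif4e had 0.20 ± 0.09. Cad and Odc1 missed the adjusted threshold, with adjusted p of 0.0995 and 0.0818.

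**Figure D3:**
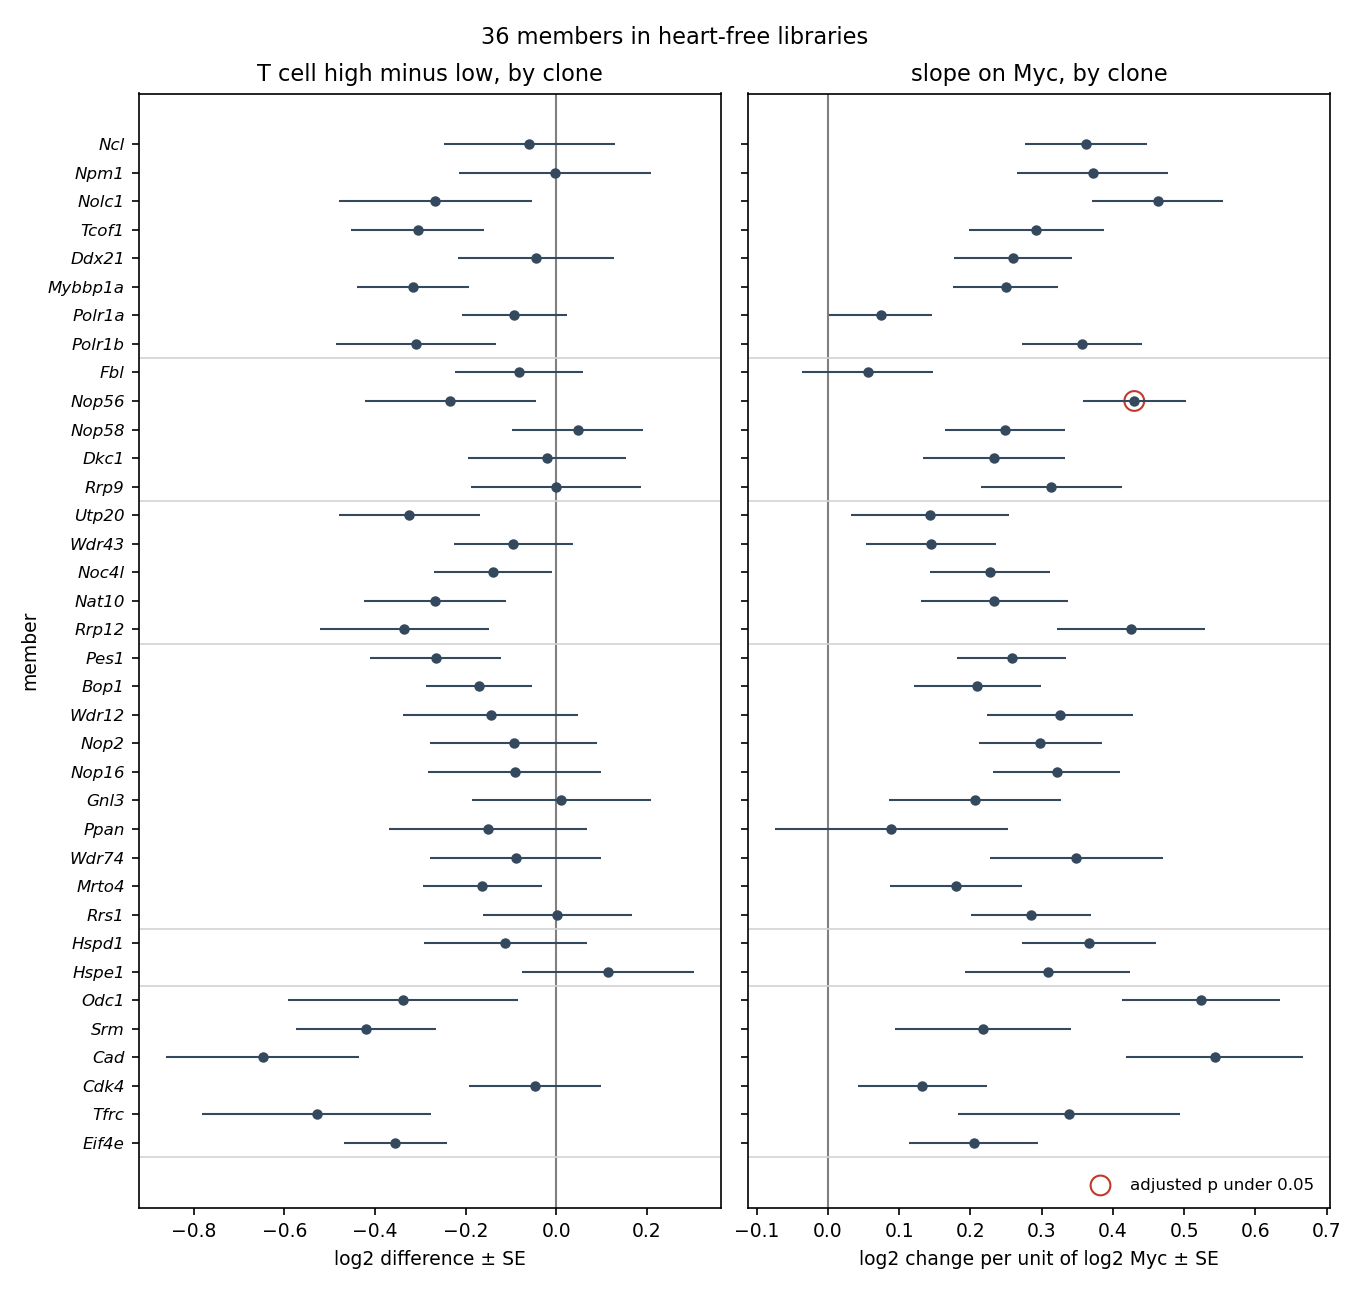
For each member in heart-free libraries, the log2 difference of T cell high minus T cell low clones (left) and the log2 slope on Myc (right), with points for the estimate and bars for its standard error, grouped by role. The class differences lie mostly below 0 with bars that often reach it, the slopes are all above 0, and the circled gene, Nop56, had an adjusted p under 0.05.

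The likeness of each member to Myc over the 16 clones ranged from r = 0.17 (Ppan) to r = 0.84 (Nop56), with a median of 0.62. Over the 630 pairs of members the median r was 0.41 and 93.2% were positive. Without yfp_2699c4 the median was 0.29 and 80.8% were positive. Nop56 was the member closest to the mean of the other 35 (r = 0.93), followed by Cad (0.88) and Hspd1 (0.86), and Gnl3, the gene of nucleostemin, was the farthest (0.17). The points share libraries and depth, so these values describe the clones at hand.

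Beyond the module, 94 of 99 other ribosome biogenesis genes had positive slopes on Myc (median 0.16), with 37 at an unadjusted p under 0.05 and 0 passing adjustment. Nol10 (0.50 ± 0.10), Gtpbp4 and Heatr1 had the smallest p among them. The 24 proliferation genes were all positive (median 0.24, 8 at an unadjusted p under 0.05), and 58 of 76 ribosomal protein genes were (median 0.10). Of the MYC network, Max had a slope of 0.30 ± 0.10 (adjusted p = 0.202) and Mycn, the paralogue of Myc, -1.06 ± 0.35 (adjusted p = 0.195). All 10 tested leukocyte markers (median -1.08) and all 6 fibroblast markers (median -1.24) had negative slopes, none of them passing, and the part of such cells in the members' slopes was not tested.

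The clones yfp_2838c3 (T cell high) and yfp_2699c4 (T cell low) were the only classed clones with more than 1 heart-free library, and they compare 2 clones, not the classes. Myc was at 74.5, 107 and 57.9 CPM in the 3 libraries of yfp_2838c3, against 473 and 668 CPM in the 2 libraries of yfp_2699c4. Its difference was -2.89 ± 0.32 on the log2 scale (SE, adjusted p = 0.00755, edgeR). In the same order of libraries the score was 6.78, 6.41 and 6.65 in yfp_2838c3, and 7.23 and 7.40 in yfp_2699c4. Within yfp_2838c3 the library with the most Myc had the lowest score, while within yfp_2699c4 the one with more Myc had the higher score. Of the 36 members 20 were lower in yfp_2838c3 and 0 higher, against 9.17% of all 15762 genes called lower, and the median over members was -0.77, against 0.02 over all genes. For 31 members every library of yfp_2838c3 lay below both libraries of yfp_2699c4, as for 27.1% of 13085 genes that averaged 1 CPM or more. The ranges of 4 members (Polr1a, Utp20, Wdr43 and Nat10) overlapped, and Gnl3 alone was higher, with 102, 97.8 and 99.1 CPM against 80.1 and 92.1 CPM, a difference that did not pass (0.15 ± 0.13).

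By role, 4 of 8 nucleolar and RNA polymerase I genes were lower, 4 of 5 snoRNP genes, 2 of 5 small subunit factors, 7 of 10 large subunit factors, neither chaperonin gene, and 3 of 6 growth and metabolism targets. Npm1 fell to 872, 873 and 734 CPM in yfp_2838c3, against 1848 and 1868 CPM in yfp_2699c4 (-1.22 ± 0.19, adjusted p = 0.0142). Nop56 had 143, 96.1 and 124 CPM in yfp_2838c3 and 206 and 261 CPM in yfp_2699c4 (-1.01 ± 0.21, adjusted p = 0.0271). Odc1 was the member with the smallest p, at 239, 207 and 205 CPM in yfp_2838c3 and 497 and 617 CPM in yfp_2699c4 (-1.42 ± 0.17, adjusted p = 0.00909).

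Rrp12 had 42.8, 28.2 and 40.1 CPM in yfp_2838c3, against 66.1 and 85.0 CPM in yfp_2699c4. Pes1 had 99.4, 93.2 and 85.9 CPM against 170 and 182 CPM, in the same order of clones. Mybbp1a had 322, 194 and 255 CPM in yfp_2838c3 and 449 and 508 CPM in yfp_2699c4, and its adjusted p was 0.0435. Hspd1, at 574, 363 and 429 CPM in yfp_2838c3 and 649 and 679 CPM in yfp_2699c4, did not overlap but missed the threshold (-0.60 ± 0.24, adjusted p = 0.130).

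**Figure D4:**
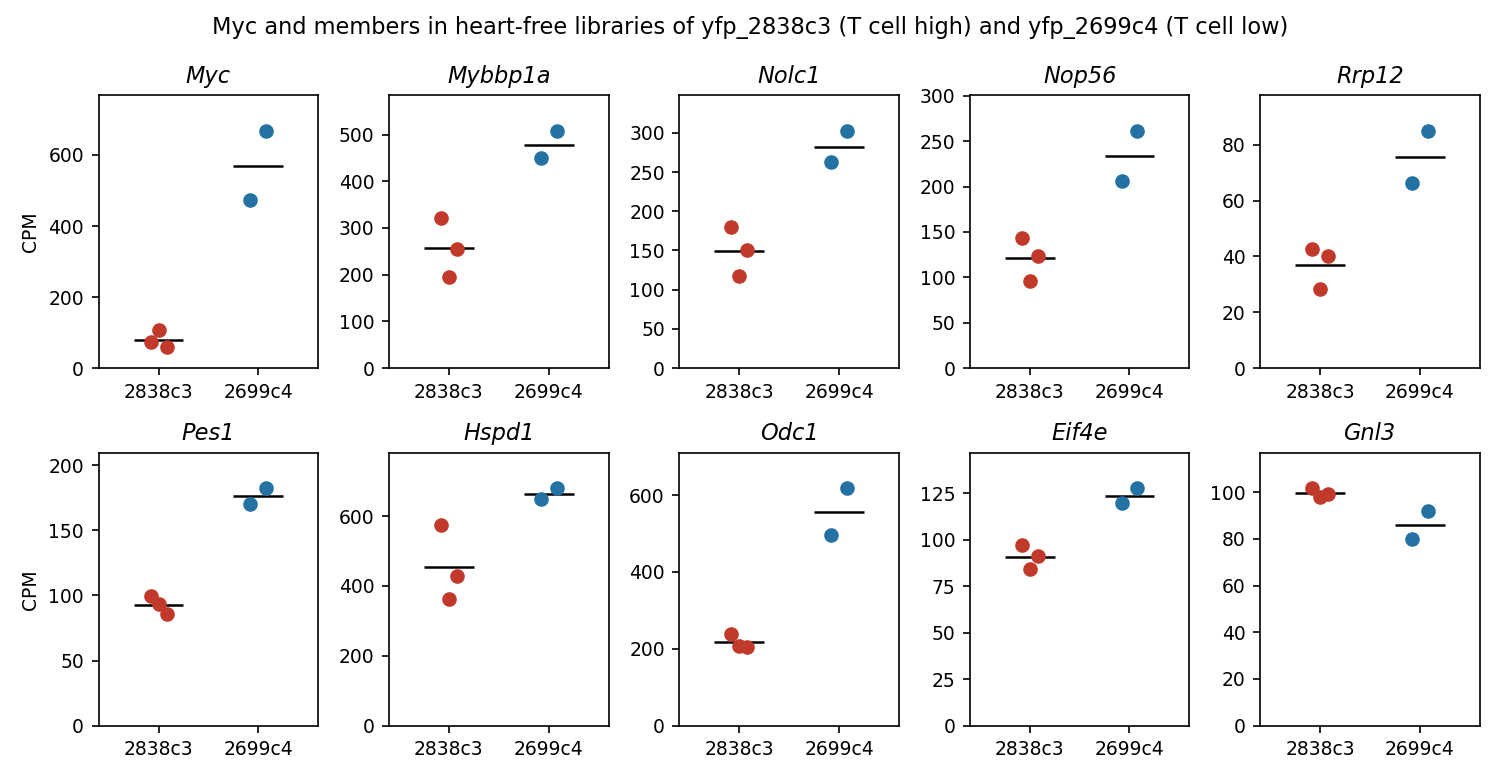
CPM of Myc and 9 members in each heart-free library of yfp_2838c3 (3 points, left in each panel) and yfp_2699c4 (2 points, right), with lines at the means and axes from 0. All panels except that of Gnl3 have the points of yfp_2838c3 below those of yfp_2699c4. The drawn members are a choice: Utp20, whose ranges overlapped, and Nop16, whose ranges did not, are not drawn.

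Of the MYC network, Mycn was higher in yfp_2838c3, with 26.5, 61.2 and 96.4 CPM against 6.87 and 2.64 CPM in yfp_2699c4 (3.60 ± 0.69, adjusted p = 0.0222). Mycl was higher as well (1.74 ± 0.43, adjusted p = 0.0414), and Max was lower (-0.97 ± 0.15, adjusted p = 0.0143). Of 99 other ribosome biogenesis genes 38 were lower and 0 higher, led by Nol10 (-1.70 ± 0.16), Nhp2 and Ddx24, while 3 of 76 ribosomal protein genes were lower and 0 higher. The comparison rests on few libraries. Leaving out either library of yfp_2699c4 ended all calls on members. Leaving out 1 of yfp_2838c3 left 10 to 22, with the share of all genes called not given. In these fits the members' median stayed between -0.88 and -0.66. With the heart-bearing libraries of both clones added, 0 members passed and the median was -0.50. DESeq2 called 24 members, and it also called more of all genes than edgeR did, with the counts given in the section on processing choices. The 10 tested leukocyte markers were all higher in yfp_2838c3 (median 2.37), but none passed, and their part in the members' differences was not tested. In the heart-bearing libraries of the same clones Myc was at 121 CPM in yfp_2838c3, and at 491 and 162 CPM in yfp_2699c4, the last in a library with 4840 CPM of heart transcripts.

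Heart-bearing libraries were set against heart-free libraries of the same clone in the 15 classed clones with both. The score was lower in the heart-bearing libraries of 15 of 15 clones, with a median difference of -0.28 and a range from -0.68 (yfp_2699c4) to -0.05 (yfp_6556c3). Under TMM and RLE scaling it was lower in 15 of 15 as well. The median over all genes that averaged 1 CPM or more was 0.04. Beside the heart and liver transcripts, endothelial markers summed to 24.4 to 231 CPM (median 182) in heart-bearing and 3.33 to 161 CPM (median 12.4) in heart-free libraries. In the same order, fibroblast markers summed to 756 to 8824 CPM (median 4011) and 96.6 to 17623 CPM (median 555). Leukocyte markers summed to 502 to 2217 CPM (median 1343) and 40.8 to 3488 CPM (median 249), again in that order. Their part in the score was not tested. Lower in every clone were 8 members (Ncl, Npm1, Fbl, Nop58, Dkc1, Ppan, Rrs1 and Hspe1), as were 5.87% of 14459 genes. Noc4l was higher in every clone (median 0.64), and the share of all genes higher in every clone was not counted. Hspe1 had the largest median difference at -0.94, whereas Eif4e (0.21) and Gnl3 (0.14) were lower in only 2 of 15 clones. Myc was lower in 5 and higher in 10 of the 15 clones, by a median of 0.11. Since most heart-bearing libraries resemble each other more than their own clone, the 15 differences are not independent, and no test was made.

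**Figure D5:**
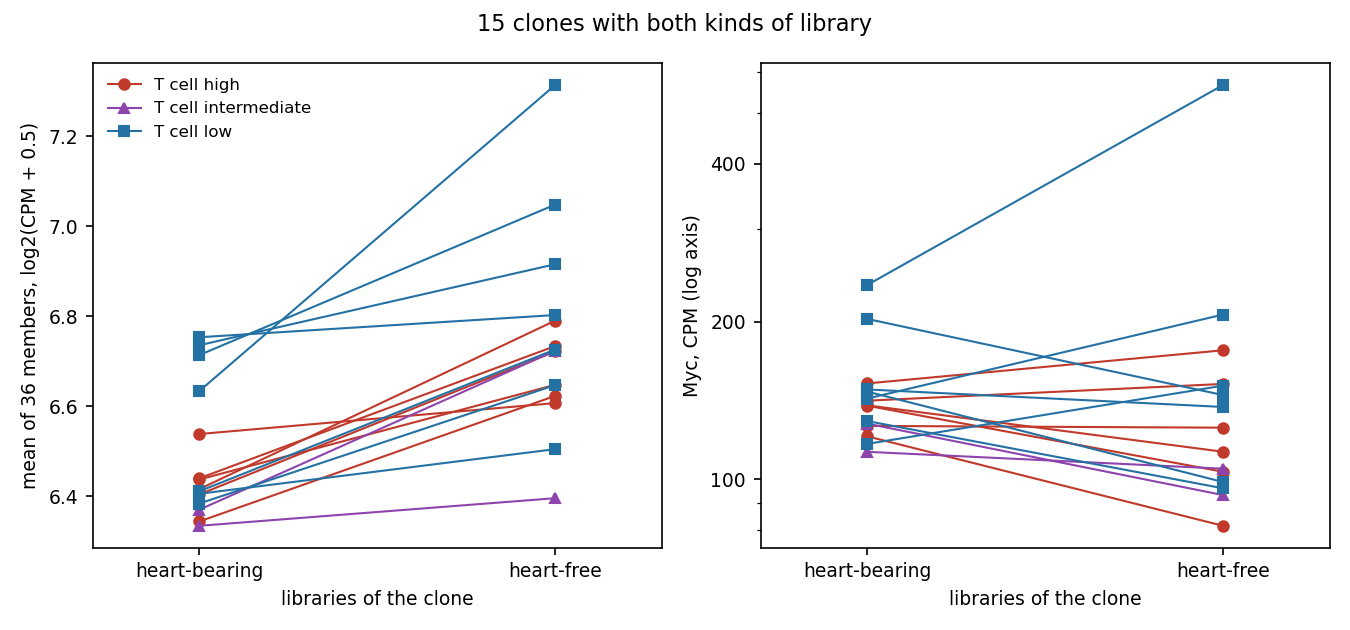
Score of the 36 members (left) and Myc in CPM on a log axis (right) in the heart-bearing and heart-free libraries of 15 clones, with a line per clone coloured by T cell class. Every line of the left panel is lower at the heart-bearing end, while the lines of the right panel go both ways.

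The T cell intermediate clones had 0 members called against T cell low clones (0.0% of 17532 genes) and 0 against T cell high clones (0.0% likewise) by edgeR, in heart-free libraries. At an unadjusted p under 0.05, 2 members were lower than in T cell low clones, against 1.7% of all genes, and 0 differed from T cell high clones, against 2.65% of all genes. The members' medians were -0.25 against T cell low and -0.11 against T cell high clones. The 2 intermediate clones stood apart from each other, also in leukocyte markers (3488 CPM in yfp_7160c5 and 40.8 CPM in yfp_6422c5), whose part was not tested. Without yfp_7160c5 the medians were -0.04 and 0.18, and without yfp_6422c5 they were -0.56 and -0.42.

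Sister clones of one parent line gave 3 pairs of classes in heart-free libraries, with 1 library each and so no test. In yfp_6499c4 (T cell high), 15 members were higher and 21 lower than in yfp_6499c3 (T cell low), with a median of -0.08, and Myc was at 152 against 145 CPM. In yfp_6556c4 (T cell high) 15 were higher and 21 lower than in yfp_6556c3 (T cell low), with a median of -0.10, and Myc was at 176 against 151 CPM. In yfp_7160c2 (T cell high) 34 were higher and 2 lower than in yfp_7160c5 (T cell intermediate), with a median of 0.20, and Myc was at 125 against 93.3 CPM. Within the first 2 lines the clone with more Myc had the lower score (6.79 against 6.92, and 6.72 against 6.80). In the third the clone with more Myc had the higher score (6.62 against 6.40) and more of 34 members. The share of all genes that were higher was not counted for these pairs. Leukocyte markers summed to 112 CPM in yfp_7160c2 and 3488 CPM in yfp_7160c5, and their part was not tested.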

How the data were processed

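RNA of sorted tumour cells was sequenced in 39 libraries on a NextSeq instrument after Qiagen extraction and NEB library preparation, per the labels' protocols. The authors deposited raw read counts per gene, whole numbers with no normalization. The submitters' processing notes name STAR, featureCounts and mm10. The sources used here give no versions, annotation or strand setting. Of 39017 rows, 214 that repeat a symbol were dropped. Counts were summed per clone, since the labels do not name animals, and CPM used the library totals. Libraries with under 10 CPM of the 4 heart genes were called heart-free. Per-length levels divide CPM by the union of the exon bases of the gene, which can exceed the length of any single transcript.

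Tests used edgeR 4.0.16 (quasi-likelihood, TMM, filterByExpr) in R 4.3.3 on all genes passing the filter, with Benjamini-Hochberg adjustment and a threshold of 0.05, two-sided. The intermediate class shared a fit with the other classes. The slope on Myc used log2 CPM of Myc as predictor. Alternatives were RLE size factors, no filter on low counts, DESeq2 1.42.0, limma 3.58.1 (prior count of 2), leaving out each clone or library, other library choices and blocks. Python 3.11.15 with pandas 2.3.3, numpy 2.4.6, scipy 1.17.1 and matplotlib 3.10.9 did the rest. The scripts were tested on simulated data. Correlations are descriptions. Library totals ranged from 7638130 to 103794674 counts, and from 26866065 to 41683806 in heart-free libraries, where precision is limited by the number of clones.

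The members and lists were chosen with earlier results of these data known. Values in every class are given for Myc and, in each of the 6 role groups, for the members whose p was smallest in the heart-free class fit and in the slope fit. Other lists are given by counts, with up to 3 genes of the smallest p. Other members named, such as Cad, Srm, Tfrc, Npm1 and Gnl3, were chosen after their values were seen. The 3 clones with no class entered no comparison.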

Additional observations from a re-analysis of the deposited data

Results flagged for a closer look

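Within a T cell class, 7 of 76 groups of heart-free clones held a clone far from the rest, by Dixon's criterion. Chance alone marks about 1 in 20 groups. Among the 8 T cell low clones, yfp_2699c4 stood above the others for Myc (566 CPM, next 206), Nolc1 (281 CPM, next 167) and Rrp12 (75.1 CPM, next 49.1). Among the 6 T cell high clones, yfp_2838c3 stood below the others for Ppan (51.5 CPM, next 70.7) and Rrs1 (48.3 CPM, next 65.4). In the same class Wdr43 was far above the rest in yfp_6499c4 (131 CPM, next 103), and Odc1 was in yfp_6556c4 (319 CPM, next 239).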

How the results depend on the processing

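In the comparison of T cell high and T cell low clones over all libraries, 1 member was called with libraries as replicates and heart content as a block. For that fit the share of all genes called is not given. With tumour number as a replicate block, 0 members were called; the labels do not say that the number pairs libraries. Nop16 turned positive under that block (0.011) and without yfp_2699c4 (0.019). In heart-free libraries, with each clone left out, Nop16 ranged from -0.15 to 0.031 (without yfp_2699c4) and Hspd1 from -0.18 to 0.0043 (without yfp_6421c2). Among Myc and the members named by rule, the other 240 and 196 recomputed values kept direction and side of the threshold. Over all 36 members, positive differences numbered 0 in the main fit over all libraries, 4 under the tumour-number block and up to 3 with a clone left out (yfp_2699c4). In heart-free libraries they numbered 4, and 1 to 11 with a clone left out (11 without yfp_2699c4, 8 without yfp_7160c2 or yfp_6421c2). For the slope on Myc, members called numbered 1 in the main fit, 12 by DESeq2 and 0 with class as a covariate. In heart-bearing libraries alone 0 were called, in all libraries 2, and with each clone left out 0 to 2. In heart-bearing libraries without yfp_2699c4, an alternative chosen after seeing the data, 3 were called. Apart from the main fit and DESeq2, the share of all genes called in these fits is not given. The slope of Nop16 was -0.14 in heart-bearing libraries alone and -0.27 there without yfp_2699c4, where Hspd1 was -0.039. Between yfp_2838c3 and yfp_2699c4, 0 members were called with all libraries and 0 to 22 with each library left out. The share of all genes called with a library left out is not given either. Over all genes, DESeq2 called 80 higher and 43 lower (class, all libraries), 181 and 117 (class, heart-free) and 174 and 243 (slope), against 0, 0 and, for the slope, 5 higher and 2 lower by edgeR. Limma called 10 and 21 for the slope, edgeR without a filter 28 and 7. With DESeq2 the 2 clones differed in 2372 higher and 2109 lower genes, against 1432 and 1446. The cause of these shifts was not tested.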

Other observations

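The clone yfp_7062c3, which the labels put in no class, had a score of 6.83 and 160 CPM of Myc in its heart-free library. The other clones with no class had heart-bearing libraries only, with a score of 6.73 and 120 CPM of Myc in yfp_6883c1, and 6.53 and 155 CPM in yfp_6883c4.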
